A study of Mus musculus with 4 samples.

Results

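The genes described here are 43 type I interferon-stimulated genes of the mouse: antiviral effectors, sensors of foreign nucleic acid, and the receptor and transcription factors that carry the interferon signal. They were taken by name from a list of such genes, 42 by their GENCODE M21 symbol and Mb21d1 through its RefSeq synonym Cgas. All 43 were among the 17476 genes of the deposited count table, and all 43 passed the filter on low counts that left 14239 genes to test. RNA was measured in 4 libraries of myeloid-derived suppressor cells (MDSCs), immature cells of the neutrophil and monocyte lines that dampen T cell responses, to compare Trem2 mutant with wild-type (WT) MDSCs. Trem2 encodes a surface receptor of macrophages and related cells.

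Per the labels, bone marrow of C57/BL6 mice (the WT group) or of TREM2mut mice (the Trem2_mutant group, also labelled strain C57BL/6) was differentiated into MDSCs in culture and injected into male NRG mice. NRG mice lack lymphocytes, and those used here were challenged under the skin with TRAMP-C1 cells, a mouse prostate cancer line, at 6 weeks of age. In both groups the MDSCs were given 4 weeks after the challenge, 6 h later the tumours were removed, and after a digestion of 45 minutes the CD45+, CD11B+, GR1+ cells were sorted. The gate does not tell injected cells from those of the NRG host, and the Trem2 mutation itself is not described in the labels. Each genotype has 2 libraries, named by the number in their column: WT 1, WT 2, Trem2 mutant 1 and Trem2 mutant 3. The labels do not state whether animals or cultures were kept separate, so the p-values cover no more than the spread among these libraries, and that spread may be technical.

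Type I interferons are secreted when a cell detects viral or misplaced nucleic acid. They bind a receptor made of the IFNAR1 and IFNAR2 chains, whose kinases JAK1 and TYK2 pass the signal on. STAT2 and IRF9 act within the factor ISGF3, which binds interferon-stimulated response elements near gene starts and turns on antiviral genes, among them the sensors that detect nucleic acid. In the myeloid cells of tumours the same genes are a common readout of interferon exposure.

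The response element can be read in the members' promoters. The motif searched was GAAA, any pair of bases, and GAAA again, on both strands (on the other strand TTTC, any pair, TTTC), from 250 bases before to 50 after each start in the RefSeq promoter table (GRCm38.p6). Matches may overlap one another. Of 31 members with an entry, 14 held the motif (45.2%), against 3.44% of all 32851 promoter windows and 3.96% of the 9779 tested genes with an entry. A stretch of 60 bases before the start is given for Ifit1, Ifit3, Ifit3b, Isg15 and Rsad2, which rose by close to 2-fold, for the OAS genes Oas1a, Oas1g and Oas3, and for Trim30a, Stat2 and Bst2. Stat2 and Bst2 are shown because they held the motif and did not pass the test. Capitals mark the matches, each stretch is written 5′ to 3′ along the gene's strand, and coordinates are on GRCm38.p6.
Ifit1 (chr19:34640769-34640828, plus strand): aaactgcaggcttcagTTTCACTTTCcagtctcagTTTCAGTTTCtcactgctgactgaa
Ifit3 (chr19:34583365-34583424, plus strand): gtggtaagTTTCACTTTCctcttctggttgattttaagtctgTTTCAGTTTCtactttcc
Ifit3b (chr19:34607761-34607820, plus strand): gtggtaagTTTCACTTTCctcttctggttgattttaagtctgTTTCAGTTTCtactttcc
Isg15 (chr4:156200856-156200915, minus strand): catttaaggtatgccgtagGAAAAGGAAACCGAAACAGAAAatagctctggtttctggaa
Rsad2 (chr12:26456538-26456597, minus strand): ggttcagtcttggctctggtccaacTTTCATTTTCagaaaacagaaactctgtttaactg
Oas1a (chr5:120907526-120907585, minus strand): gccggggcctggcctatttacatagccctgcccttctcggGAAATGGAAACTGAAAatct
Oas1g (chr5:120887614-120887673, minus strand): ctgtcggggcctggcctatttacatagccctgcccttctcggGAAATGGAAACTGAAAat
Oas3 (chr5:120777700-120777759, minus strand): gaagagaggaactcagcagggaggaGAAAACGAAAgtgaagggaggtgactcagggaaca
Trim30a (chr7:104465195-104465254, minus strand): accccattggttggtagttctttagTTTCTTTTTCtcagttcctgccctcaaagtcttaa
Stat2 (chr10:128270251-128270310, plus strand): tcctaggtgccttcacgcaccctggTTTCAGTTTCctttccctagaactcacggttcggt
Bst2 (chr8:71537565-71537624, minus strand): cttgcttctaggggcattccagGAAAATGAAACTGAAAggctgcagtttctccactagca

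In these stretches Isg15 carried 3 overlapping matches, and Ifit1, Ifit3, Ifit3b, Oas1a, Oas1g and Bst2 carried 2 each. The stretches of Ifit3 and Ifit3b were the same at 60 of 60 bases, and their promoters shared 188 of 218 bases aligned on the first match (86.2%). In Ddx58, Ifih1 and Eif2ak2 the only match lay past the start. Of the 14 members with the motif, 9 rose in the mutant libraries, with a median log2 fold change of 0.56. Of the 17 members with an entry and no match, 6 rose and 1 fell, with a median of 0.39, and these 17 included Cmpk2, Samd9l and Ifit2. The difference between the members with and without a match was not tested, and a window without these letters says nothing of elements elsewhere.

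**Figure D1:**
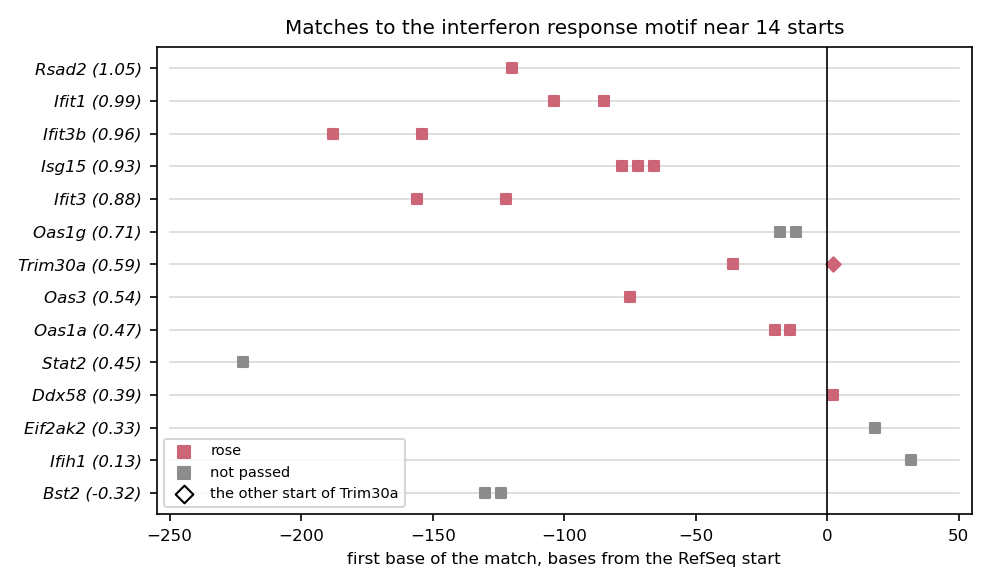
Position of each match to the GAAA-NN-GAAA motif (both strands) in 14 members, in bases from the RefSeq start (x axis, vertical line at the start), with the log2 fold change of the gene, mutant over WT, in brackets; red marks genes that rose and grey genes that did not pass the test. The genes are ordered by their change from Rsad2 (1.05) to Bst2 (-0.32), and the 2 matches of Bst2 lie within the range of positions seen in the genes that rose.

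Total counts were between 8037733 and 10306674 reads per library. Values are given as CPM, counts scaled to a common library size by TMM, where a floor of 3 counts is 0.322 to 0.359 CPM in a single library. Trem2 itself was lower in the mutant libraries, at 44.2 and 52.2 CPM in WT 1 and WT 2 and 22.9 and 20.96 CPM in Trem2 mutant 1 and 3. Of the genes named by the gate, Ptprc (CD45) and Itgam (CD11b) were between 420 and 1363 CPM in every library. Ly6g, one of the GR1 antigens, was between 5.66 and 7.22 CPM in WT and between 123 and 144 CPM in mutant libraries. Ly6c2, another GR1 antigen gene, was at 26.9 and 24.8 CPM in WT 1 and WT 2. In Trem2 mutant 1 and 3 Ly6c2 was at 378 and 282 CPM, so these gate genes differed strongly between the groups. The locus Gm42418 took 13.9% of the reads of Trem2 mutant 1 and at most 1.04% of the others.

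Of the 43 interferon genes, 20 rose, 1 fell and 22 did not pass the test in the mutant group (edgeR's quasi-likelihood test, Benjamini-Hochberg adjusted p under 0.05). Over all 14239 genes tested, 9.55% rose and 3.6% fell. The median log2 fold change of the members was 0.46, against −0.02 for all genes tested. The members were chosen with earlier results of these data known, so these comparisons do not come from an independent list. In 34 members both mutant libraries were above both WT libraries, in 4 both were below, and in 5 the groups overlapped; over all genes tested, 28.9% lay above and 31.7% below. The rises were of moderate size: 5 members rose at least 2-fold, and the largest was Cmpk2 at 2.74-fold. Without WT 1, 12 members rose and the call of the fallen gene, Xaf1, was lost, where 3.25% of all genes rose and 0.612% fell. Without WT 2, 15 rose and 1 fell, where 4.8% and 0.861% of all genes did. Without Trem2 mutant 1 and without Trem2 mutant 3, 24 rose and 1 fell, where 9.98% and 14.2% of all genes rose and 4.07% and 6.2% fell. With DESeq2, 16 members rose and 1 fell, where 7.77% and 1.45% of the 13686 genes with an adjusted p did, and the calls of Ddx58, Ifi204, Oas1a and Oas2 were lost. With limma-voom 21 rose and 1 fell, where 9.3% and 3.34% of all genes did.

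The direction of single members depends on how the libraries are scaled. With library totals alone, 9 members rose and 3 fell, and the median over all genes tested went to −0.40. The members' median was then 0.09, which is 0.48 above that of all genes, as it was 0.49 above under TMM. A scaling factor shifts every gene of a library alike, so this gap could hardly change and is no check of the result. Under that scaling 4.56% of all genes rose and 30.7% fell. With totals counted without Gm42418, 14 members rose and 4 fell, where 5.87% of all genes rose and 27.7% fell, and the median over all genes was −0.30.

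**Figure D2:**
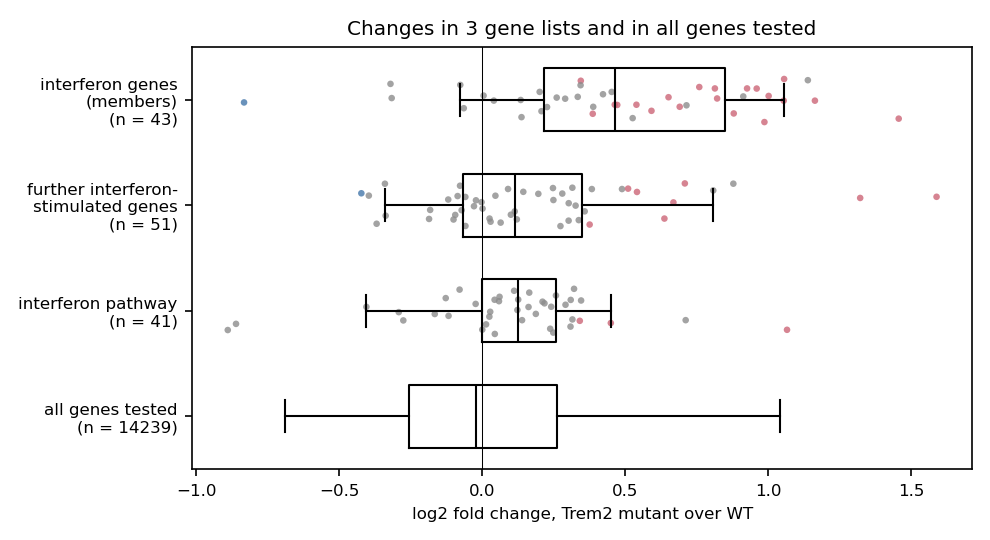
Log2 fold change, mutant over WT (x axis), of the 43 interferon genes, 51 further interferon-stimulated genes, 41 interferon pathway genes and all 14239 genes tested; boxes span the quartiles with the median, whiskers the 5th to 95th percentiles, and points are genes (red rose, blue fell, grey not passed). The members' median of 0.46 lies above the medians of 0.11 and 0.13 of the other lists.

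Of the 5 receptor and transcription factor genes, Irf7 rose and the other four did not pass the test. Ifnar1, which encodes a chain of the interferon receptor, was at 206 and 228 CPM in WT 1 and WT 2 and at 220 and 216 CPM in Trem2 mutant 1 and 3. The groups overlapped, and its log2 fold change was 0.00 (SE 0.0847, adjusted p = 0.98). Ifnar2, the partner chain, was at 71.3 and 72.6 CPM in WT and at 75.6 and 89.5 CPM in mutant libraries. It did not pass the test (log2 fold change 0.20, SE 0.101, adjusted p = 0.23).

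Stat2 and Irf9, which encode proteins of ISGF3, were higher in both mutant libraries without passing the test. Stat2 was at 42.8 and 63.3 CPM in WT 1 and WT 2 and at 73.8 and 71.3 CPM in the mutant libraries, so its WT libraries lay further apart than its mutant libraries (log2 fold change 0.45, SE 0.165, adjusted p = 0.115). Irf9 was at 68.1 and 67.4 CPM in WT and 89.0 and 76.7 CPM in mutant libraries (log2 fold change 0.29, SE 0.0973, adjusted p = 0.0932). Irf7, the factor that amplifies interferon production and is itself interferon-induced, rose. Its level was 72.2 and 70.5 CPM in WT 1 and WT 2 and 117 and 107 CPM in Trem2 mutant 1 and 3, so the groups lay well apart. The log2 fold change was 0.65 (SE 0.0832, adjusted p = 0.00286), or 1.57-fold.

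Of 7 nucleic acid sensors, 4 rose. Zbp1, a sensor of Z-form nucleic acid that can trigger cell death, changed most among them. It was at 17.4 and 15.1 CPM in WT 1 and WT 2 and at 38.8 and 34.1 CPM in Trem2 mutant 1 and 3, and the lower mutant library was 1.96 times the higher WT library. The log2 fold change was 1.16 (SE 0.132, adjusted p = 0.0017). Tmem173, which encodes STING, the adaptor of cytosolic DNA sensing, went from 17.8 and 15.8 CPM in WT to 29.7 and 27.2 CPM in mutant libraries. It rose 1.69-fold (adjusted p = 0.00923), a call that was lost without WT 2.

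Mb21d1 encodes cGAS, the DNA-sensing enzyme that makes the messenger for STING, and it did not pass the test. It was at 14.3 and 13.7 CPM in WT and at 9.10 and 13.2 CPM in Trem2 mutant 1 and 3 (log2 fold change −0.32, SE 0.204, adjusted p = 0.336). Only Trem2 mutant 1 lay clearly below the WT libraries. Ifi204, a DNA-binding HIN-200 protein gene, rose 1.38-fold, from 49.8 and 45.0 CPM to 68.4 and 62.3 CPM (adjusted p = 0.0237).

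The 3 RIG-I-like receptors of viral RNA differed among themselves by their calls, though differences between them were not tested. Ddx58, which encodes RIG-I, rose 1.31-fold, from 94.3 and 93.7 CPM in WT to 132 and 114 CPM in mutant libraries (adjusted p = 0.0313). Ifih1, which encodes MDA5, was at 47.6 and 46.3 CPM in WT and 51.4 and 51.7 CPM in mutant libraries and did not pass (adjusted p = 0.364). Dhx58, which encodes the regulator LGP2, was at 29.9 and 25.4 CPM in WT and 27.1 and 33.6 CPM in mutant libraries, and its groups overlapped (adjusted p = 0.568). The calls of Ddx58 and Ifi204 were lost without WT 1, without WT 2, with DESeq2 and with both library-total scalings. Without WT 1 and without WT 2, Ddx58 had a log2 fold change between 0.38 and 0.39.

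All 4 IFIT genes rose, by 1.77-fold to 1.98-fold. IFIT proteins bind viral RNA that lacks the host's cap methylation and block its translation. Ifit1 was at 27.3 and 30.3 CPM in WT 1 and WT 2 and at 56.5 and 57.6 CPM in Trem2 mutant 1 and 3. The mutant libraries differed by less than the WT libraries did, and the log2 fold change was 0.99 (SE 0.103, adjusted p = 0.00121). Ifit2 went from 20.9 and 20.3 CPM to 37.0 and 35.7 CPM (log2 fold change 0.82, SE 0.109). Ifit3 went from 20.1 and 21.5 CPM to 39.7 and 36.9 CPM (log2 fold change 0.88, SE 0.112).

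Ifit3b, a near copy of Ifit3, went from 9.90 and 8.32 CPM to 17.5 and 17.9 CPM (log2 fold change 0.96, SE 0.164), and its call was lost without WT 2. Of the stretches of 50 bases in Ifit3 transcripts, 51.2% also occur in Ifit3b, so the split of reads between these genes is uncertain. Their summed level was 30.0 and 29.8 CPM in WT and 57.1 and 54.8 CPM in mutant libraries, a ratio of means of 1.87 that does not depend on the split. The family lies in a cluster of 99.3 kb on chromosome 19 (GRCm38 34550694 to 34650009). The other genes measured within it, Ifit1bl1 and Ifit1bl2, rose 2.498-fold and 3.01-fold, from 1.15 to 2.88 CPM and from 5.18 to 15.7 CPM by group means. Ifit1bl1 had few reads, 10 and 11 in WT and 22 and 29 in mutant libraries (SE 0.353, adjusted p = 0.0478, edgeR's test). Ifit1bl2 was at 19.5 and 11.8 CPM in Trem2 mutant 1 and 3, which lay far apart (SE 0.279, adjusted p = 0.0106, same test). Lipa, a lysosomal lipase gene within 100 kb of the cluster that was picked after its value was seen, fell by 0.30 on the log2 scale (adjusted p = 0.0408). Ch25h, also within 100 kb, did not pass the test (log2 fold change 0.68, SE 0.604). Whether the rise extends past the cluster was not tested.

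In the OAS family, whose enzymes make the messenger that activates RNase L, 4 of 6 genes rose, and both mutant libraries were above both WT libraries in all 6. The changes were smaller than those of the IFIT genes, from 0.34 to 0.71 on the log2 scale against 0.82 to 0.99, a difference that was not tested. Oas3 was the most changed of the enzymes that passed, at 113 and 112 CPM in WT and 178 and 149 CPM in Trem2 mutant 1 and 3 (log2 fold change 0.54, SE 0.1, adjusted p = 0.0132). Oas2 went from 85.2 and 88.2 CPM to 108 and 112 CPM (1.27-fold, adjusted p = 0.0263), and with library totals alone its direction turned, to −0.03. Oasl1, an OAS-like protein gene whose product restrains translation of Irf7 in mice, went from 20.1 and 22.1 CPM to 39.1 and 29.2 CPM (1.61-fold, adjusted p = 0.0282). Its mutant libraries lay further apart than its WT libraries, with Trem2 mutant 1 the higher.

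Oas1a went from 21.3 CPM in each WT library to 29.9 and 29.2 CPM (1.39-fold, adjusted p = 0.0315). Oas1g did not pass, at 3.05 and 4.05 CPM in WT and 5.51 and 6.13 CPM in mutant libraries (log2 fold change 0.71, SE 0.266, adjusted p = 0.12). Of the 50-base stretches of Oas1a transcripts, 57.6% occur in Oas1g, so reads of this pair may be split between them. Their sum was 24.4 and 25.4 CPM in WT and 35.5 and 35.4 CPM in mutant libraries. Oasl2 lay just past the threshold, at 136 and 169 CPM in WT and 198 and 201 CPM in mutant libraries (log2 fold change 0.39, SE 0.109, adjusted p = 0.0553). The calls of Oas1a, Oas2, Oas3 and Oasl1 were lost without WT 1, without WT 2 and with both library-total scalings, and those of Oas1a and Oas2 also with DESeq2. Oas1b and Oas1c lie in the same cluster on chromosome 5 (GRCm38 120730333 to 120907521) and had log2 fold changes of −0.09 and −0.09, neither passing.

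Among the other antiviral effectors, 4 of 8 rose, among them Cmpk2, which changed most of all members. Cmpk2, a mitochondrial nucleotide kinase gene, was at 21.2 and 17.2 CPM in WT 1 and WT 2 and at 52.7 CPM in both mutant libraries. Its lower mutant library was 2.48 times the higher WT library, and the log2 fold change was 1.46 (SE 0.126, adjusted p = 5.72e-04). Rsad2, which encodes viperin, an enzyme that makes a chain-terminating nucleotide, was at 89.9 and 100 CPM in WT and 195 and 200 CPM in mutant libraries. It rose 2.08-fold (log2 fold change 1.05, SE 0.0865, adjusted p = 4.43e-04). Rsad2 and Cmpk2 are neighbours on chromosome 12, transcribed away from each other with 12.8 kb between them.

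Samd9l, an antiviral inhibitor of translation, was at 138 and 150 CPM in WT and 317 and 281 CPM in Trem2 mutant 1 and 3. It rose 2.08-fold (log2 fold change 1.05, SE 0.0944, adjusted p = 6.47e-04). Isg20, an exonuclease of single-stranded RNA, went from 15.1 and 16.3 CPM to 29.8 and 25.5 CPM (1.76-fold, adjusted p = 0.00875), and its call was lost without WT 1. Eif2ak2, which encodes the RNA-activated kinase PKR, was at 41.7 and 34.4 CPM in WT and 44.7 and 51.0 CPM in mutant libraries and did not pass (adjusted p = 0.128). Bst2, which encodes tetherin, was lower in both mutant libraries without passing the test, at 15.99 and 15.4 CPM in WT and 12.5 and 12.7 CPM in mutant libraries (log2 fold change −0.32, SE 0.146, adjusted p = 0.186).

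The Mx genes had few reads in every library. Mx1, a dynamin-like antiviral GTPase gene that is known to be defective in C57BL/6 mice, had 16 and 28 reads in WT and 20 and 31 reads in mutant libraries. Its groups overlapped (log2 fold change 0.26, SE 0.38, adjusted p = 0.689). Mx2 had 12 and 17 reads in WT 1 and WT 2 and 25 and 37 reads in Trem2 mutant 1 and 3. Its log2 fold change of 1.14 was close to the 1.16 of Zbp1, but with an SE of 0.353 it did not pass (adjusted p = 0.0732).

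Isg15, the ubiquitin-like modifier that cells attach to proteins during an interferon response, rose, while the enzymes of its cycle among the members did not pass the test. Isg15 was at 32.1 and 29.9 CPM in WT 1 and WT 2 and at 49.8 and 67.7 CPM in Trem2 mutant 1 and 3. Trem2 mutant 3 was the highest library, and the groups did not overlap (log2 fold change 0.93, SE 0.152, adjusted p = 0.00797). Usp18, the protease that removes ISG15 and also shields the receptor, was at 20.7 and 20.0 CPM in WT and 23.96 and 27.6 CPM in mutant libraries (log2 fold change 0.34, SE 0.127, adjusted p = 0.119). Herc6, the ligase that attaches ISG15 in mice, was at 11.6 and 12.9 CPM in WT and 12.3 and 10.96 CPM in mutant libraries. Its groups overlapped (log2 fold change −0.08, SE 0.168, adjusted p = 0.796).

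Of the PARP, TRIM and DELTEX genes, 1 of 4 rose. Trim30a, a ubiquitin ligase that restrains Toll-like receptor signalling, was at 124 and 131 CPM in WT and 186 and 199 CPM in mutant libraries (1.51-fold, adjusted p = 0.00397), and its call was lost without WT 1. Parp9 and Dtx3l encode partners in a complex that modifies proteins with ADP-ribose and ubiquitin, and their exons overlap on opposite strands by 458 bases. Parp9 was at 43.4 and 46.5 CPM in WT and 53.1 and 50.7 CPM in mutant libraries, and Dtx3l was at 82.1 and 83.0 CPM and at 98.3 and 94.8 CPM. Both were higher in both mutant libraries without passing (adjusted p = 0.194 and adjusted p = 0.1). Whether strand was used in counting is not stated, so reads of the overlap could belong to either gene. Parp14, an ADP-ribosyltransferase gene beside them, was at 178 and 181 CPM in WT and 173 and 196 CPM in mutant libraries, with overlapping groups (log2 fold change 0.04, SE 0.0885).

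Among the remaining members, Ifi27l2a rose, Xaf1 fell and 4 did not pass. Ifi27l2a, a small mitochondrial membrane protein gene used as an interferon marker, was at 42.3 and 36.5 CPM in WT 1 and WT 2 and at 79.4 and 78.2 CPM in Trem2 mutant 1 and 3. It rose 2.001-fold (log2 fold change 1.0007, SE 0.102, adjusted p = 0.00108). Xaf1, which encodes a partner and antagonist of the apoptosis inhibitor XIAP, was at 21.4 and 20.8 CPM in WT and at 12.0 and 11.7 CPM in mutant libraries. It fell by 0.83 on the log2 scale (SE 0.137, adjusted p = 0.00797), with libraries of a genotype close together and the groups well apart. Without WT 1 the log2 fold change of Xaf1 stayed between −0.86 and −0.80, as it did without each other library, but the call was lost.

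Rtp4, a chaperone of receptors that binds viral RNA, lay just past the threshold, at 28.3 and 37.9 CPM in WT and 48.2 and 47.1 CPM in mutant libraries (log2 fold change 0.53, SE 0.143, adjusted p = 0.0505). Ifi47, an interferon-inducible GTPase gene, was at 10.1 and 10.2 CPM in WT and 13.7 and 13.5 CPM in mutant libraries (adjusted p = 0.123). Ifi35 was at 38.8 and 38.1 CPM in WT and at 36.8 CPM in both mutant libraries (log2 fold change −0.07, SE 0.0987). Ifi44 had 9 and 3 reads in WT and 9 and 13 in mutant libraries and did not pass the test (log2 fold change 0.91, SE 0.563).

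**Figure D3:**
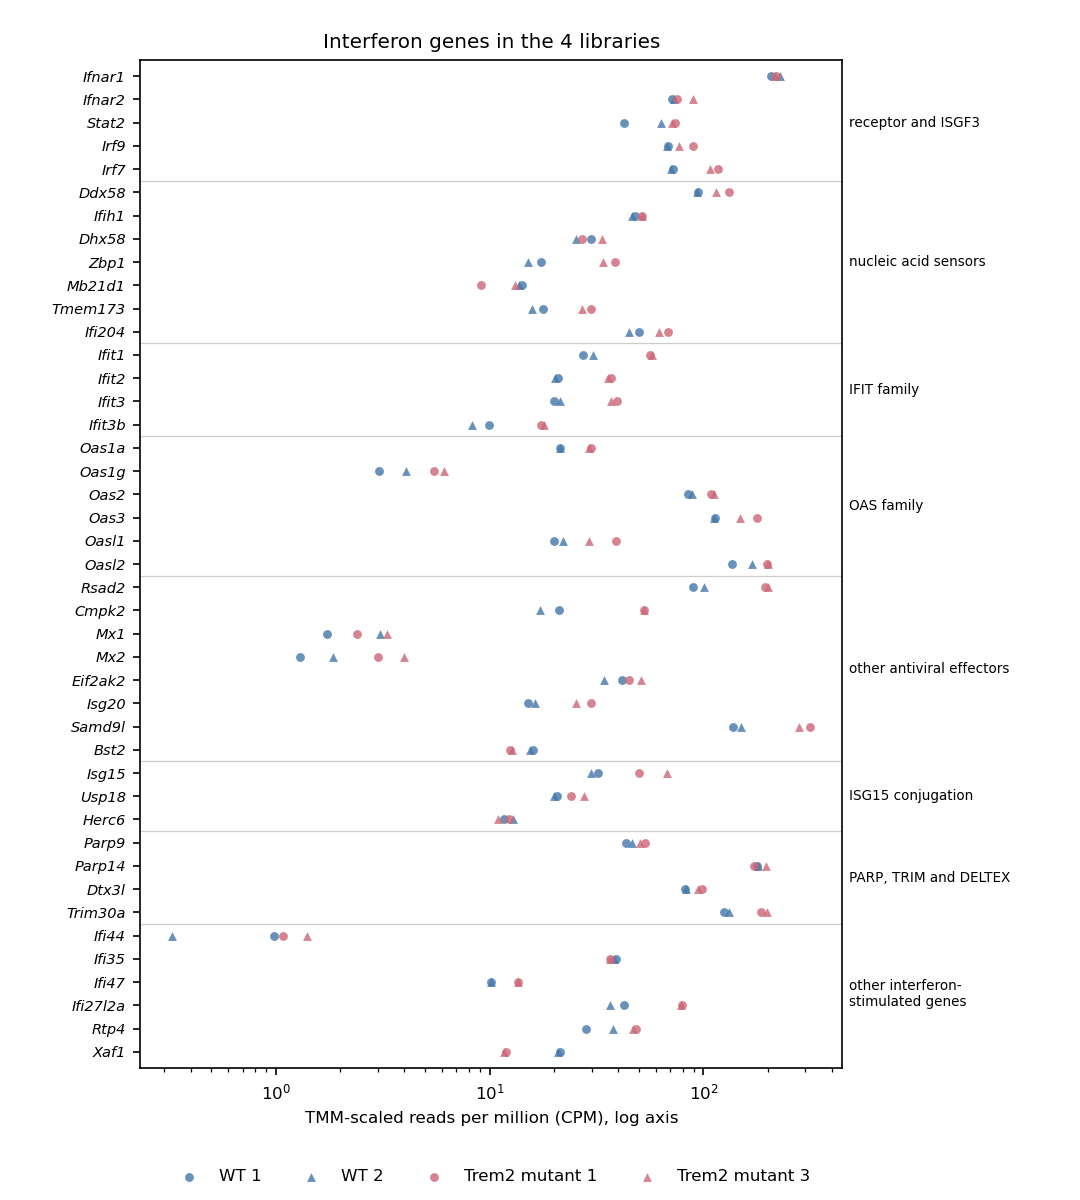
Level of each of the 43 interferon genes in each library as TMM-scaled CPM (x axis, log scale), grouped by role; blue marks WT and red Trem2 mutant, circles and triangles the libraries within a genotype. In the IFIT rows the red points lie to the right of the blue points by a similar distance, while in Ifnar1, Parp14 and Herc6 they overlap.

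Levels per kilobase of exon spread over a wide range, and the members that rose were spread along it. Ifi27l2a had the highest level in WT at 85.1 CPM per kb of exon, followed by Isg15 at 41.0, Ifnar1 at 36.6, Trim30a at 31.1 and Samd9l at 26.5 CPM per kb. Ifi44, Mx2 and Mx1 had the lowest, at 0.107, 0.438 and 0.635 CPM per kb. In mutant libraries Ifi27l2a (170 CPM per kb) and Isg15 (77.7 CPM per kb) kept the first places, and Samd9l (55.1 CPM per kb) had rank 3 while Ifnar1 (36.7 CPM per kb) had rank 6. Between the WT level per kb and the log2 fold change, Spearman's rho over the 43 members was −0.03. Genes are not independent replicates here, since all values come from the same 4 libraries.

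By position, the members that rose were spread over 9 chromosomes. All 4 members on chromosome 19, the IFIT genes, rose, as did all 3 on chromosome 12 and all 3 on chromosome 7. Over all genes tested 9.55% rose, and shares for single chromosomes were not counted. The IFIT genes lie in a single cluster, and Rsad2 and Cmpk2 are neighbours, so these are not separate positions. The 8 members on chromosome 16 are Ifnar1, Ifnar2, Mx1, Mx2, Parp9, Parp14, Dtx3l and Rtp4. Of these, 0 passed edgeR's test, and 3 had an unadjusted p under 0.05 (Rtp4, Mx2 and Dtx3l). With DESeq2 0 passed, and with limma-voom Rtp4 did. Libraries of a genotype agreed somewhat more closely over the members than over all genes tested, a comparison that was not matched for level. The median absolute log2 difference between WT 1 and WT 2 was 0.11 over the members and 0.14 over all genes tested, and between the mutant libraries it was 0.12 and 0.18 (CPM + 0.5).

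**Figure D4:**
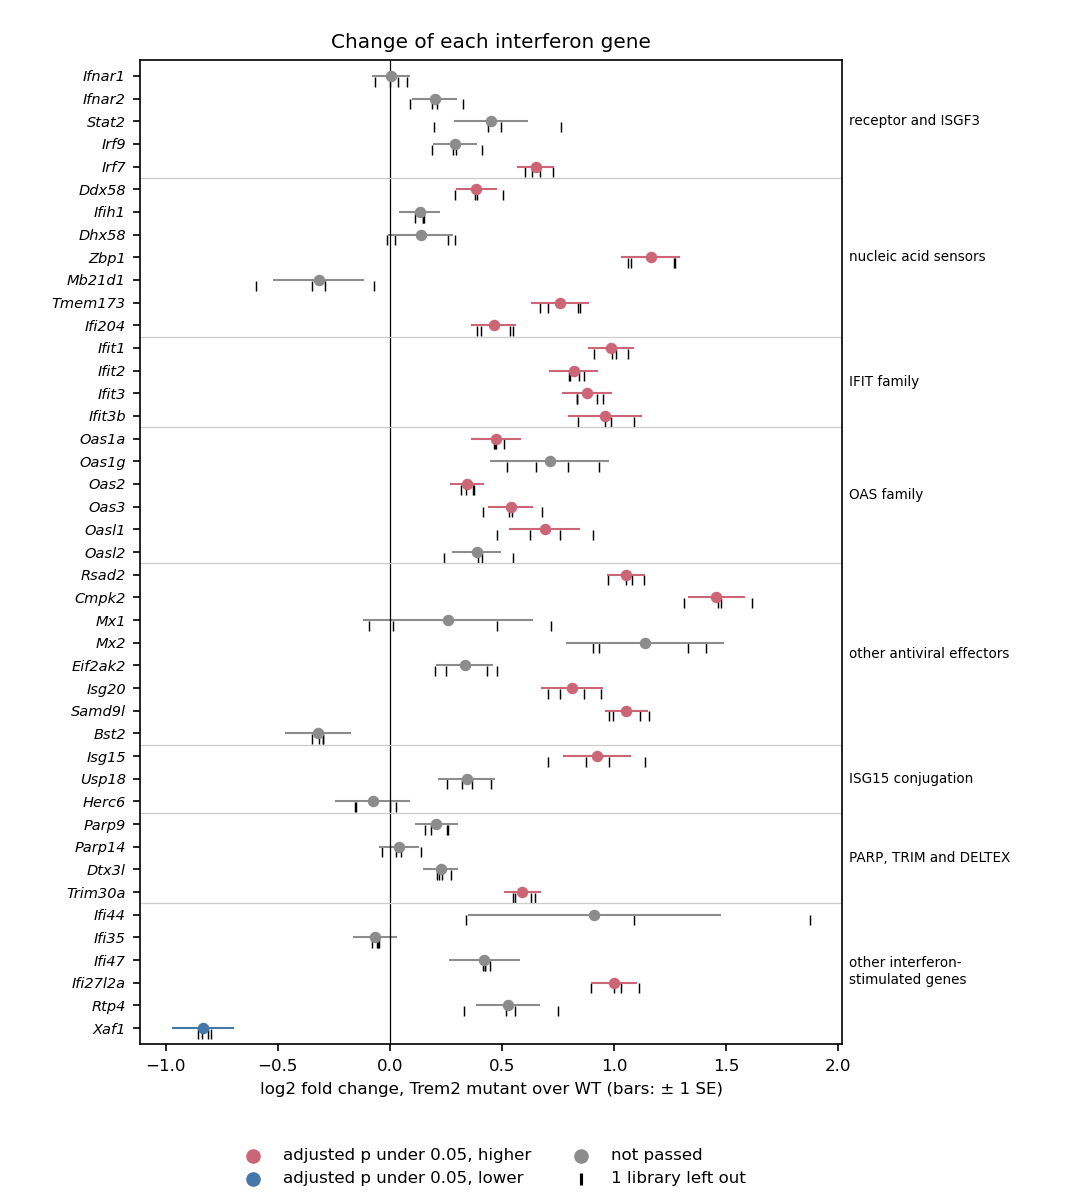
Log2 fold change, mutant over WT (x axis), of each interferon gene by role, with bars of ± 1 SE; red genes rose, the blue gene fell and grey genes did not pass the test, and short black ticks are the values with 1 of the 4 libraries left out. Cmpk2 lies furthest right at 1.46 and Xaf1 furthest left at −0.83, and the ticks of all 21 called genes stay on their side of 0.

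Other genes of the pathway were taken from a list of induction and signalling genes that are not members. Of 57 listed, 41 were tested, and 3 rose (7.32%), which is close to the 9.55% of all genes tested. In edgeR's test, DESeq2 and limma-voom 0 of them fell, while at an unadjusted p under 0.05 in edgeR's test 10 were higher and 3 lower. Of 16 interferon ligand genes listed, Ifnk was the only one analysed here, with 31 and 19 reads in WT and 8 and 18 in mutant libraries (adjusted p = 0.225). The receptor kinase genes Jak1 and Tyk2 had log2 fold changes of 0.16 (SE 0.0867) and −4.68e-04 (SE 0.0973).

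Socs3, which encodes a feedback inhibitor of cytokine receptor signalling, rose 2.09-fold, from 541 and 570 CPM in WT to 897 and 1426 CPM in Trem2 mutant 1 and 3. Ifnlr1, a receptor chain for type III interferon, rose 1.37-fold (adjusted p = 0.0242), and Tank, an adaptor of the kinase TBK1, 1.27-fold (adjusted p = 0.0379). Samhd1, Trim25 and Ciita, next by p, did not pass, with log2 fold changes of 0.29, 0.25 and −0.86. All 3 calls were lost without WT 1 and without WT 2. With DESeq2, 1 of the pathway genes tested rose, where 7.77% of all genes with an adjusted p did.

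A further list of 57 interferon-stimulated genes that are not members held 51 tested genes, with a median log2 fold change of 0.11. Of these, 8 rose and 1 fell (15.7% and 1.96%), against 9.55% and 3.6% of all genes tested. Of its genes with a promoter entry, 25 of 51 held the motif. Sp100, a nuclear body protein gene, rose 1.63-fold, from 110 and 112 CPM to 192 and 169 CPM (adjusted p = 0.00263). Trim30b, a relative of Trim30a, rose 1.59-fold, the helicase gene Helz2 1.42-fold, Sp110 1.45-fold and the galectin gene Lgals9 1.30-fold. Nt5c3, a nucleotidase gene, rose 1.55-fold. Ifi207, a HIN-200 gene beside Ifi204, fell by 0.42 on the log2 scale (SE 0.107, adjusted p = 0.04), so neighbours of one family went opposite ways. Ifi204 shares 2.53% of its 50-base stretches with Ifi207 and 20.0% with any other gene, so some of its reads may be split. With DESeq2 the call of Ifi207 was lost. Cxcl10, an interferon-induced chemokine gene, was at 26.9 and 23.6 CPM in WT and at 30.5 and 61.9 CPM in Trem2 mutant 1 and 3, so only Trem2 mutant 3 was high, and it did not pass (adjusted p = 0.0864). Leaving out WT 1 left 1 gene of this list called higher, and 4 were called higher without WT 2 and with DESeq2.

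Markers of several cell types moved with genotype beside the interferon genes. The summed level of 7 neutrophil granule genes was 2472 and 2279 CPM in WT and 16257 and 11936 CPM in mutant libraries, and all 7 rose. Ltf, lactoferrin, was at 51.1 and 41.3 CPM in WT and 5340 and 3784 CPM in mutant libraries. Of 5 mature neutrophil markers 4 rose (summed level 4080 to 4110 CPM in WT and 14661 to 16111 CPM in mutant libraries), and of 5 monocyte markers 4 rose (486 to 558 CPM and 1043 to 1644 CPM). Of 6 macrophage markers 3 rose, with sums that overlapped between groups (500 to 569 CPM and 546 to 715 CPM). All 4 eosinophil markers measured rose (70.8 to 71.4 CPM and 152 to 194 CPM), with Ear1 at 0 reads in both WT libraries. Of 5 fibroblast markers 3 rose (107 to 157 CPM and 399 to 443 CPM). The 3 endothelial markers measured summed to 59.0 and 64.6 CPM in WT and 101 and 78.6 CPM in the mutant libraries, and Pecam1 was the 1 of the 2 tested that rose. The 4 epithelial markers measured could come from tumour cells, and their sum was lower in the mutant libraries. It was 154 and 161 CPM in WT and 85.8 and 88.4 CPM in the mutant libraries. Nearly all of that sum was Cdh1, which encodes E-cadherin and fell by 0.88 on the log2 scale (adjusted p = 6.35e-04). Krt18, the other of the 2 tested, was higher in both mutant libraries without passing the test (log2 fold change 0.23).

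Of 6 markers of plasmacytoid dendritic cells, the chief interferon-producing cell, 2 were measured, and their sum was 1.74 to 1.97 CPM in WT and 1.93 to 2.16 CPM in mutant libraries. Conventional dendritic cell markers summed to 7.40 to 8.10 CPM and 8.92 to 9.22 CPM, and T and NK cell markers to 7.83 to 8.10 CPM and 5.39 to 8.92 CPM. The 43 interferon genes summed to 2148 and 2240 CPM in WT and to 3085 and 3037 CPM in mutant libraries. On this scale the sum over all genes tested was also higher in the mutant group. It was 872605 and 882433 CPM in WT and 1232659 and 1053556 CPM in Trem2 mutant 1 and 3, which is the background for the marker sums too. The part of the marker changes in the interferon result was not tested. In these bulk libraries, more cells of a type and more RNA per cell cannot be told apart.

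**Figure D5:**
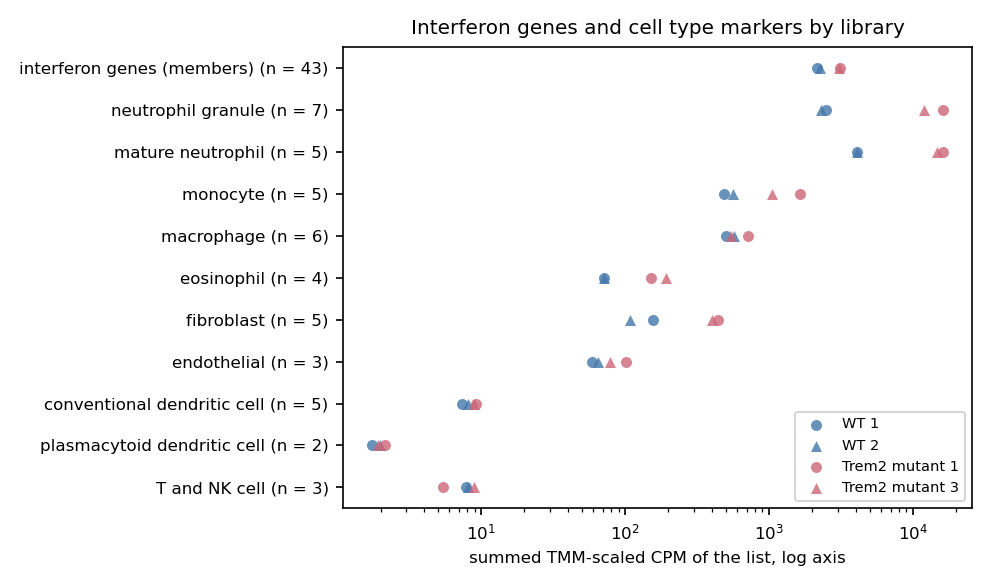
Summed TMM-scaled CPM (x axis, log scale) of the 43 interferon genes and of the measured markers of each cell type (number in brackets) in each library; blue marks WT and red Trem2 mutant, circles and triangles the libraries within a genotype. The interferon genes went from about 2148 to 3085 CPM, while the neutrophil granule genes went from 2472 to 16257 CPM between WT 1 and Trem2 mutant 1. Between the same libraries the sum over all genes tested went from 872605 to 1232659 CPM.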

How the data were processed

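RNA from sorted tumour MDSCs was depleted of ribosomal RNA and sequenced, per the labels' protocols. The authors deposited unnormalized read counts for Ensembl gene IDs. The submitters' processing notes name FastQC, STAR 2.5.2a, DESeq2 and GRCm38 (mm10), and leave the read counter, strand setting and annotation release unstated. No gene of the table had fewer than 11 reads in all. Names, positions and exon lengths come from GENCODE M21 (17422 genes matched, 54 not). The column numbered 3 matches no label number and was used as a mutant library.

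Counts were tested with edgeR 4.0.16 in R 4.3.3 (filterByExpr, TMM, glmQLFit with default settings, glmQLFTest, a two-sided test), fitted on genotype alone, with p-values adjusted over all genes by Benjamini-Hochberg and read at 0.05. The biological coefficient of variation was 0.106 (2 residual and 5.71 prior degrees of freedom). Each SE is the size of the log2 fold change over the square root of F. Alternatives were other scalings, filters, forms and tools (DESeq2 1.42.0, limma 3.58.1), and leaving out genes or libraries. The test was checked on simulated counts. Members and lists were chosen with earlier results of these data known. Every member is named, with the 6 genes of lowest p of the pathway and further lists and Jak1, Tyk2, Cxcl10 and Trem2, except for an item that is not reported here; Ifnk, Nt5c3, Ifi207, Ifit1bl1, Oas1b, Oas1c, Lipa, the gate genes, Ltf, Ear1, Pecam1, Cdh1 and Krt18 were added after their values were seen. Copies were counted over stretches of 50 bases in GENCODE transcripts.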

Additional observations from a re-analysis of the deposited data

How the results depend on the processing

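Over 14 alternatives, the calls of 8 of the 21 called members held in every one (Zbp1, Ifit1, Ifit3, Rsad2, Cmpk2, Samd9l, Isg15 and Ifi27l2a), and those of 10 held without each library in turn (these and Irf7 and Ifit2). Leaving out a library leaves 1 sample in a group, which is then assumed to vary like the other group. No paired analysis was possible because WT columns are numbered 1 and 2 but mutant columns 1 and 3, which leaves a single shared number. The use of library totals without Gm42418 was chosen after seeing the data. The causes of these differences were not tested. Mx1 had 16 to 31 reads a library and Ifi44 had 3 to 13, and their SEs were 0.38 and 0.563 on the log2 scale.

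The 20 members that rose numbered 12 to 24 with a library left out, 9 with library totals alone, 14 with totals without Gm42418, 16 with DESeq2 and 21 with limma-voom; the remaining alternatives moved the number by less than 1.5 times. The 1 that fell became 0 to 1, 3 with library totals alone and 4 without Gm42418. Of the pathway genes, 3 rose, 0 to 7 with a library left out, and 1 with DESeq2, with library totals alone and without Gm42418. Of the 41 pathway genes tested, 10 fell with library totals alone, as without Gm42418, where 30.7% and 27.7% of all genes fell. Of the further interferon-stimulated genes, 8 rose, 1 to 12 with a library left out, 4 with DESeq2, 1 with library totals alone and 3 without Gm42418. Of the 51 tested in that list, 0 fell with DESeq2, 9 with library totals alone and 10 without Gm42418. Over all genes with an adjusted p, 1.45% fell with DESeq2, 30.7% with library totals alone and 27.7% without Gm42418. The shares of all genes that rose in these settings were 7.77%, 4.56% and 5.87%.

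The log2 fold change reversed in 13 members under some setting, of which only Oas2 had been called. With library totals alone it was −0.37 for Ifnar1, −0.16 for Ifnar2, −0.0907 for Irf9, −0.24 for Ifih1, −0.23 for Dhx58, −0.0272 for Oas2, −0.10 for Mx1, −0.0342 for Eif2ak2, −0.0241 for Usp18, −0.17 for Parp9, −0.33 for Parp14 and −0.15 for Dtx3l. Outside the members it was −0.0293 for Tank, −0.0794 for Samhd1, −0.12 for Trim25 and −0.21 for Jak1. With totals without Gm42418 it was −0.27 for Ifnar1, −0.0743 for Ifnar2, −0.14 for Ifih1, −0.14 for Dhx58, −0.012 for Mx1, −0.0683 for Parp9, −0.23 for Parp14, −0.0491 for Dtx3l, −0.0271 for Trim25 and −0.11 for Jak1. Ifnar1 was at −0.0326 with upper-quartile scaling. With a library left out, values ran from −0.0664 to 0.0764 for Ifnar1, from −0.012 to 0.29 for Dhx58, from −0.0918 to 0.72 for Mx1, from −0.15 to 0.025 for Herc6, from −0.035 to 0.14 for Parp14 and from −0.12 to 0.14 for Tyk2. Tyk2, near 0 throughout, was at 0.016 with RLE scaling and with DESeq2, 0.000199 with no filter, 0.000195 with the bias-adjusted test and 0.00169 without noncoding and mitochondrial genes.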

Other observations

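Of the genes around the clustered members, some were also higher in mutant libraries, some did not pass the test, and Lipa fell. Rnf144a, a ubiquitin ligase gene within 100 kb of Rsad2 on chromosome 12, had a mean of 11.1 CPM in WT libraries and of 37.3 CPM in the mutant group, a log2 fold change of 1.75 (SE 0.13, adjusted p = 2.89e-04, edgeR quasi-likelihood test), larger than those of Rsad2 and Cmpk2. Gm13822, a noncoding gene that overlaps Oasl1 on the opposite strand by 38 exon bases, had means of 2.29 and 5.28 CPM (log2 fold change 1.19, SE 0.334, adjusted p = 0.0549). Ankrd13a and 4930519G04Rik, within 100 kb of Oasl1 and Oasl2, rose by 0.30 and 1.14 on the log2 scale (adjusted p = 0.0488 and 0.0417, edgeR's test). Fam162a, within 100 kb of Parp9, rose by 0.52 (adjusted p = 0.0175, same test), though Parp9, Dtx3l and Parp14 did not pass. Sppl3 and Kpna1, also within 100 kb of these loci, did not pass (log2 fold change −0.07 and −0.02). These genes were chosen after their values were seen.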
